A study of Mus musculus with 3 samples.

Results

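The genes of laminin-332 and the hemidesmosome were followed through the single cells of a mouse esophageal culture. The set is 8 genes chosen by symbol out of 32287 listed features, and all 8 were found once each: Lama3, Lamb3, Itga6, Itgb4, Col17a1, Dst, Plec and Cd151. They were read as raw UMIs (unique molecular identifiers, each counting 1 captured RNA molecule) in barcodes that had 500 or more genes and 1000 or more UMIs, with mitochondrial UMIs at or under 20%. Together they held 62625 UMIs, 0.138% of the UMIs in the kept cells.

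The culture, PC, is 1 sample with no replicate. It started as esophageal organoids of mice with both Trp53 alleles floxed, and Trp53 was removed by Cre from an adenovirus that carried EGFP. Cdkn2a was then disrupted with CRISPR/Cas9, so all cells described here are meant to lack both tumour suppressors, and no wild-type or single-knockout control and none of the PCN organoids that the labels also name were analysed here. The cells expressed Cas9 throughout, grew in serum-containing medium, received a barcode library by transfection and went through 3 passages before live cells with red fluorescence were sorted, with about 1000000 sorted and about 20000 recovered per the labels. The sources used here give neither strain nor age of the mice. Trp53 was at 46.8 CPM (UMIs of a gene per 1000000 UMIs) and Cdkn2a at 639.6 CPM over the kept cells, and without a control these 3′ counts do not check the knockouts, since RNA downstream of an edit can still be counted.

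A hemidesmosome is the junction that fixes the basal layer of a stratified epithelium to its basement membrane. Laminin-332, a secreted trimer that includes an alpha 3 and a beta 3 chain, is the ligand in the basement membrane, and integrin alpha 6 beta 4 is its receptor. Collagen XVII and the tetraspanin CD151 sit with the integrin in the cell membrane, while plectin and the epithelial form of dystonin (BP230) tie the complex to keratin filaments inside the cell. In esophagus and skin these genes are typical of basal cells, and epithelial cells that turn mesenchymal are known to take the junction apart.

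The matrix held 18116 barcodes, all different, and the filters kept 14925 cells with a median of 2955 UMIs and 1499 genes. Cells fell into 10 clusters, formed without the 8 genes and without 50 companion genes of the basement membrane and cell adhesion. Clusters 1, 2, 3, 5, 7, 8, 9 and 10 were epithelial-like (12237 cells, 82.0%), cluster 4 was mesenchymal-like (1962 cells, 13.1%) and cluster 6 stayed unnamed (726 cells, 4.86%). All 13 epithelial markers reached 10 CPM in the epithelial-like cells, whereas the 14 mesenchymal markers summed to 166.8 CPM there and to 3290 CPM in the mesenchymal-like cells. Those cells also had 10 of the 13 epithelial markers at 10 CPM or more, at a sum of 1178 CPM against 7793. In cluster 4, 4 markers of either list were found in at least 25% of cells, so it met the rule for both names and took the one higher relative to all cells. Lum and Thy1 were at 0 UMIs in both classes. The 8 immune markers summed to 13.9 CPM or less and the 6 endothelial markers to 5.58 CPM or less in each of these 3 sets of cells. The 4 muscle markers summed to 191.1 CPM in mesenchymal-like and 5.80 CPM in epithelial-like cells. All intervals below are exact 95% intervals for counting error only. No difference could be set against a spread between cultures, and no test was made.

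Start-site windows from RefSeq (GRCm38.p6, 250 bases before to 50 after a start) were matched for 4 of the 8 genes, Lamb3, Col17a1, Dst and Cd151, in 7 entries. The following 3 are shown because they belong to a laminin chain and to the pair of hemidesmosome genes that varied together most closely among the epithelial cells. Capitals mark CAGGTG, read on both strands (CACCTG on the other), an E-box form that the repressors SNAI1, SNAI2 and ZEB1 are known to bind. They are written 5′ to 3′ along the gene.
Lamb3, chr1:193301993-193302292, plus strand: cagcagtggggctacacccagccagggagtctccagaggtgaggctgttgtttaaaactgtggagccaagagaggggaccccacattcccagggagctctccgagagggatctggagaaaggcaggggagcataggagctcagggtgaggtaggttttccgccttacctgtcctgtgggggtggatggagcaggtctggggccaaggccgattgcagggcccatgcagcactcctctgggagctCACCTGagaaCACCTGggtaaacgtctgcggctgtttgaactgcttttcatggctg
Col17a1, chr19:47691993-47692292, minus strand: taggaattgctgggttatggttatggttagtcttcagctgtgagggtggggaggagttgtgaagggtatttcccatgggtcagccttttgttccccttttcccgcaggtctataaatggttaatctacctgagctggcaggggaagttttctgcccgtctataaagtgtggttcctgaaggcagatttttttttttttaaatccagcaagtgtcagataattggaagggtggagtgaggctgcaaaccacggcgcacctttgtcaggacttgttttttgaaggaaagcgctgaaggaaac
Dst, chr1:34160010-34160309, plus strand: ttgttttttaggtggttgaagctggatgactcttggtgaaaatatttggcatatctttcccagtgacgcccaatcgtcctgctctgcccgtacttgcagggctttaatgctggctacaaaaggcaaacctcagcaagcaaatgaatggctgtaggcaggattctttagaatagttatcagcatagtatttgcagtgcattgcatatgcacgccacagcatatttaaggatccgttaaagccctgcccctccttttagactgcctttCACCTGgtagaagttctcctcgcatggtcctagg
The Lamb3 window shown held 2 such matches, which begin 6 bases before and at base 5 of the transcript, the Dst window held 1 at base 17, and the Col17a1 window held 0. Lamb3 and Dst each had 1 other entry that is not shown. That of Lamb3 (chr1:193301744-193302043) held 0 matches. That of Dst (chr1:34011345-34011644) held 1, which begins 137 bases before the start. Of the 7 entries, 4 held at least 1. Of all 32851 windows of this length, 20.2% held the motif. The AP-1 letters TGANTCA, which read the same on both strands, were in 0 of the 7 entries and in 7.81% of all windows. These are matches of letters and no evidence of binding.

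The first comparison asked how much of each gene's RNA the epithelial-like and the mesenchymal-like cells held. The laminin chains, both integrin subunits and collagen XVII were 3.44 to 12.6 times as high in epithelial-like cells, while dystonin, plectin and CD151 differed by less than 1.3-fold. So 5 of the 8 genes were at least 2-fold apart, all 5 higher in epithelial-like cells, where 20.3% of the 9089 genes with at least 10 CPM in either class were at least 2-fold apart and 9.81% were at least 2-fold higher in epithelial-like cells. The same 5 genes were past a limit of 1.5-fold, as were 38.2% of all genes, and past 3-fold, as were 11.2%. The median ratio was 3.45 over the 8 genes and 1.01 over all 9089.

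Lama3 (ENSMUSG00000024421, GENCODE M21 on GRCm38, chromosome 18, 12333819 to 12583013, plus strand) encodes the alpha 3 chain, the arm of the trimer that integrins grip. Epithelial-like cells held 178.1 CPM (173.8 to 182.4) and mesenchymal-like cells 18.9 CPM (15.7 to 22.4), a ratio of 9.44 (7.92 to 11.3). Lamb3 (ENSMUSG00000026639, chromosome 1, 193207699 to 193343878, plus strand), the beta 3 chain, stood at 73.4 CPM (70.7 to 76.2) and 21.2 CPM (17.9 to 24.99), a ratio of 3.46 (2.92 to 4.12). The intervals of these ratios do not meet, so the chains of 1 trimer were lower in the mesenchymal-like cells by different factors.

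Itga6 (ENSMUSG00000027111, chromosome 2, 71745616 to 71858416, plus strand) encodes the alpha 6 subunit, which can also pair with beta 1. Its levels in the epithelial-like and the mesenchymal-like class were 210.7 CPM (206.1 to 215.4) and 61.3 CPM (55.6 to 67.5), 3.44-fold apart (3.11 to 3.80). Itgb4 (ENSMUSG00000020758, chromosome 11, 115974709 to 116008412, plus strand), the beta 4 subunit whose only known partner is alpha 6, was at 110.7 CPM (107.4 to 114.1) and 21.8 CPM (18.4 to 25.6), a ratio of 5.07 (4.31 to 6.02). Beta 4 RNA was thus lower by a larger factor than alpha 6 RNA.

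Col17a1 (ENSMUSG00000025064, chromosome 19, 47646344 to 47692094, minus strand), the transmembrane collagen of the hemidesmosome, had the largest ratio of the 8 genes. The epithelial-like class had 379.9 CPM (373.7 to 386.2) and the mesenchymal-like class 30.2 CPM (26.2 to 34.7). The ratio of 12.6 (10.95 to 14.5) was higher than that of 99.2% of all genes compared. For scale, the ratio was 14.8 for the basal keratin Krt5, 16.0 for the epithelial adhesion molecule Epcam and 13.0 for E-cadherin (Cdh1), which are markers of the epithelial class.

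Inside the cell the picture differed. Dst (ENSMUSG00000026131, chromosome 1, 33908225 to 34308661, plus strand) stood at 385.8 CPM (379.6 to 392.2) and 301.3 CPM (288.4 to 314.7), a ratio of 1.28 (1.22 to 1.34). Plec (ENSMUSG00000022565, chromosome 15, 76170974 to 76232574, minus strand) stood at 81.0 CPM (78.2 to 83.95) and 62.9 CPM (57.1 to 69.2), a ratio of 1.29 (1.16 to 1.43). The tetraspanin gene Cd151 (ENSMUSG00000025510, chromosome 7, 141467392 to 141471473, plus strand) stood at 84.3 CPM (81.4 to 87.3) and 73.9 CPM (67.5 to 80.6), a ratio of 1.14 (1.04 to 1.26). Dst and Plec are known to have forms outside hemidesmosomes too, and a gene's UMIs here sum over its transcripts, 20 annotated for Dst and 22 for Plec. Which of them the mesenchymal-like cells hold cannot be told apart. Genes annotated across a member's span had few UMIs, at most 124 (Parp10, on the strand of Plec, which had 3530).

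**Figure D1:**
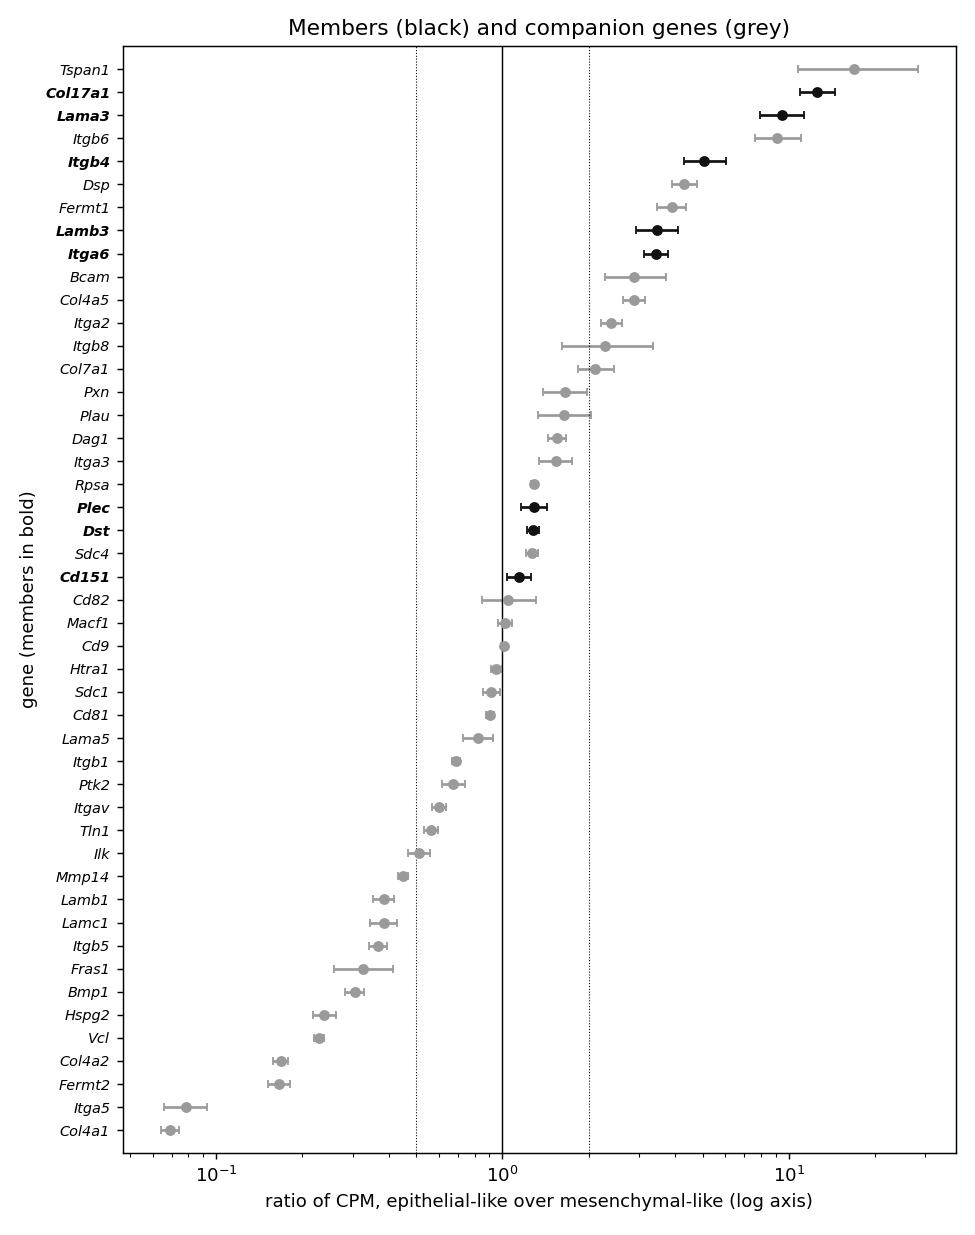
Ratio of CPM in epithelial-like over mesenchymal-like cells (log axis) for the 8 genes (black, names in bold) and companion genes with at least 10 CPM in either class (grey, 1 of the 40 not drawn), bars showing exact 95% intervals for counting error and dotted lines 2-fold. Col17a1, Lama3, Itgb4, Lamb3 and Itga6 lie to the right of the 2-fold line, and Plec, Dst and Cd151 lie between 1.14 and 1.29.

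The companion genes did not shift one way. Of the 50 listed, 40 reached 10 CPM in either class, 10 of them were at least 2-fold higher in epithelial-like cells and 12 in mesenchymal-like cells, where 9.81% and 10.5% of all genes were, and their median ratio was 0.933. Large ratios in favour of epithelial-like cells belonged to Tspan1 (16.9), a tetraspanin, Itgb6 (9.13), the partner of alpha v in a receptor that activates TGF-beta, the desmosome plakin Dsp (4.31) and Fermt1 (3.89), which encodes kindlin-1. On the other side, Col4a1 was 14.5-fold higher in mesenchymal-like cells, followed by Itga5 (12.8-fold), the alpha subunit of the fibronectin receptor, Fermt2 (6.02-fold), which encodes kindlin-2, Col4a2 (5.95-fold) and the focal adhesion gene Vcl (4.36-fold). Kindlin-1 and kindlin-2 RNA thus differed in opposite directions. Among other laminin chains, Lamb1 and Lamc1, which form most other laminin trimers, were 2.60-fold higher in mesenchymal-like cells each, whereas of the collagens Col4a5 (2.87) and the anchoring fibril gene Col7a1 (2.11) were higher in epithelial-like cells. These 4 genes were singled out after their values were seen.

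Some cells of the mesenchymal-like cluster also carried epithelial RNA, and the levels of Lama3, Lamb3, Itga6, Itgb4 and Col17a1 were higher in those cells, whereas those of Dst, Plec and Cd151 were not ordered that way. Of the 1962 cells, 1648 (84.0%) had 0 UMIs of Epcam, Cdh1 and Krt5 combined, 158 had 1 or 2, and 156 (7.95%) had 3 or more. In the last group the 5 genes stood at 44.6% (Lama3) to 60.6% (Itgb4) of their epithelial-like level. In the 1648 cells with 0 such UMIs, Col17a1 was at 6.78 CPM, or 1.79% of the epithelial-like level (1.26% to 2.46%), and Lama3 at 7.33 CPM, or 4.12% (2.94% to 5.61%). In the same cells Itgb4 was at 13.4% (10.6% to 16.7%), Lamb3 at 24.5% (19.8% to 29.9%) and Itga6 at 24.9% (from 286 UMIs). Relative to the epithelial-like level, these cells held about the same fraction of beta 3 and alpha 6 RNA, a smaller one of beta 4, and little alpha 3 and collagen XVII RNA. The epithelial marker Krt14, which was not used to pick these cells, was at 9.95% (9.24% to 10.7%) in them. Dst was at 77.9%, Plec at 79.2% and Cd151 at 90.6% (81.6% to 100.4%). In the cells with 3 or more UMIs of Epcam, Cdh1 and Krt5, Dst, Plec and Cd151 were at 85.2%, 71.0% and 60.1% (42.2% to 83.0%). Against the cells with 0 such UMIs alone, a subset added after the data were seen, the ratio was 56.0 for Col17a1, 24.3 for Lama3 and 7.46 for Itgb4. Without the 10% of all cells with the highest doublet scores it was 43.3, 17.1 and 7.12.

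The cells with 3 or more epithelial marker UMIs had a median of 4525 UMIs (4524.5) and a median doublet score of 0.315, against 3240 (3239.5) UMIs and 0.0259 in the cells with 0. Whether these barcodes hold more than 1 cell was not tested. Vim, the mesenchymal filament gene, was at 571.2 CPM in the former and at 1107 CPM in the latter.

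**Figure D2:**
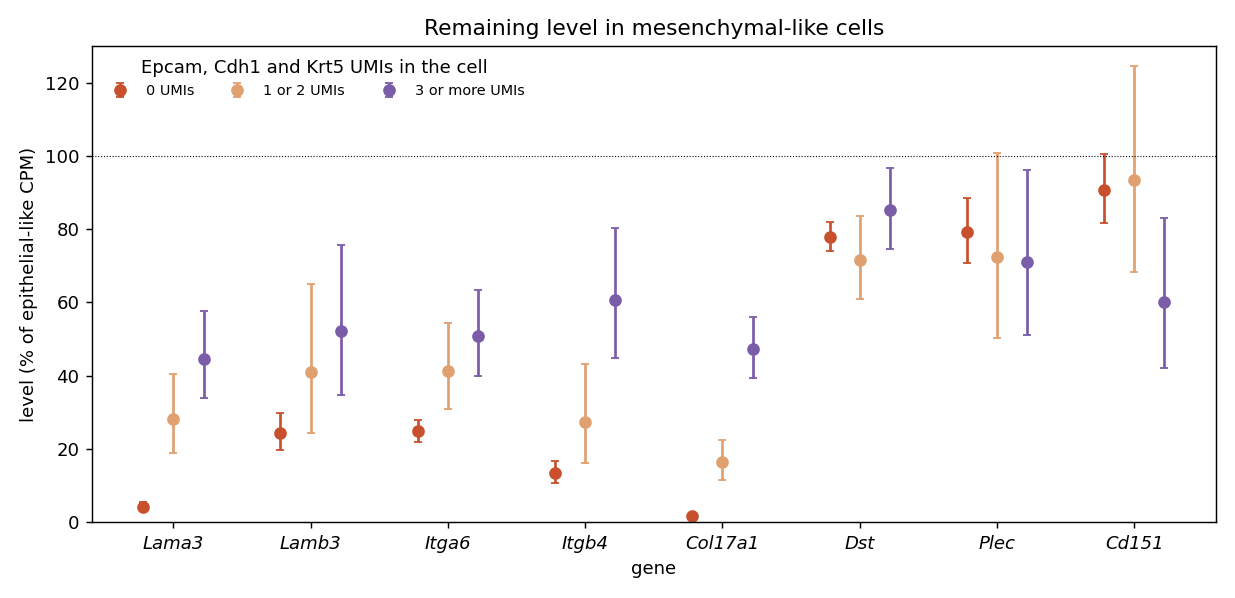
Level of each gene in mesenchymal-like cells as a percentage of its epithelial-like CPM, for cells with 0, with 1 or 2 and with 3 or more UMIs of Epcam, Cdh1 and Krt5 combined (bars: exact 95% intervals for counting error, dotted line: 100%). In cells with 0 such UMIs Col17a1 lies at 1.79% and Lama3 at 4.12%, Lamb3 and Itga6 near 25%, and Dst, Plec and Cd151 at 77.9% to 90.6%.

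Shares of cells were compared after thinning every cell to 1500 UMIs, which left out 1080 epithelial-like and 35 mesenchymal-like cells. A Col17a1 UMI was found in 41.5% of epithelial-like cells (40.5% to 42.4%; 60.0% unthinned) and in 3.58% of mesenchymal-like cells (2.80% to 4.51%; 6.98% unthinned). For Lama3 these shares were 23.0% (38.3% unthinned) and 2.85% (5.81% unthinned), and for Itga6 27.0% (44.1%) and 8.67% (18.0%). Epcam and Krt5, which mesenchymal cells should lack, were found in 6.59% and 4.77% of thinned mesenchymal-like cells, so shares of this size there, those of Lamb3 (3.48%) and Itgb4 (3.01%) included, do not by themselves show expression. Relative to their epithelial-like CPM, Epcam, Krt5 and Cdh1 stood at 6.25%, 6.75% and 7.67% in all mesenchymal-like cells. Col17a1 (7.96%) and Lama3 (10.6%) were near these markers, while Itgb4 (19.7%) and Lamb3 (28.9%) stood above them. The epithelial marker Krt14 stood higher, at 16.3% (15.5% to 17.2%), and its interval meets that of Itgb4 (16.6% to 23.2%). The part of free RNA in these values was not tested. The median depth was 2954 UMIs in epithelial-like and 3344 in mesenchymal-like cells. Dst differed less, with 41.6% and 34.5% of thinned cells. Of the 8 genes the median thinned epithelial-like cell had a UMI of 2 and the median mesenchymal-like cell of 1, and 14.8% (14.1% to 15.4%) and 43.3% (41.1% to 45.6%) of cells had none.

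The next question was how the genes varied among the epithelial-like cells. Cluster 1 (4263 cells) was led by Prl2c3, Prl2c2 and Wfdc18, cluster 2 (3279 cells) by Krt7 and Sorbs2, and cluster 3 (2082 cells) by the division genes Ccna2 and Nusap1. Cluster 5 (1435 cells) was led by Gabrp, Lcn2 and Ltf, cluster 7 (692 cells) by Sncg and Ly6d, cluster 8 (294 cells) by Prl2c5 and Ptn, cluster 9 (111 cells) by Ly6c1 and Pate14, and cluster 10 (81 cells) by interferon-response genes such as Ifit3b. Over the 7 of these clusters with at least 100 cells, 6 of the 8 genes were at least 2-fold higher in their highest than in their lowest cluster, which 57.7% of 9797 genes were too. The count was 4 without cluster 9, beside 40.0% of genes. The median of highest over lowest was 3.39 for the 8 genes and 2.17 for all genes, or 2.14 and 1.82 without cluster 9.

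Col17a1 spanned the widest range. It was at 463.5 CPM in cluster 7, 451.8 in cluster 2, 438.3 in cluster 1, 418.8 in cluster 10, 362.0 in cluster 8 and 347.1 in cluster 3. It was at 154.6 CPM (143.7 to 166.1) in cluster 5 and at 9.67 CPM (2.64 to 24.8) in cluster 9, where all 111 cells together held 4 UMIs. Each of the first 6 levels overlapped the next in its interval, and cluster 5 stood apart below them. Cluster 9 lay below the mesenchymal-like cells as a whole (30.2 CPM, 26.2 to 34.7). Its interval held the level of the mesenchymal-like cells with 0 UMIs of Epcam, Cdh1 and Krt5, 6.78 CPM (4.77 to 9.35). Cluster 9 had the epithelial marker Epcam in 100% of its cells and 0 Vim UMIs, where 3 UMIs would be 7.25 CPM and the exact interval reaches 8.92 CPM. Its Krt5 was at 26.6 CPM, against 645.3 to 1221 CPM in clusters 1, 2, 3, 5, 7 and 8. In this cluster the other hemidesmosome genes were low but present, with Lama3 at 65.3 CPM, Itga6 at 87.1, Itgb4 at 33.9 and Lamb3 at 26.6, the last from 11 UMIs. Compared with cluster 5, Col17a1 was 16.0-fold lower in cluster 9 (6.22 to 58.8), while the intervals of the ratio of cluster 5 to cluster 9 included 1 for Dst (0.833, 0.680 to 1.03) and Plec (0.830, 0.544 to 1.32).

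Cluster 5, whose leading genes Lcn2 and Ltf encode secreted antimicrobial proteins, was lower than cluster 1 in 7 of the 8 genes, as it was in 52.8% of the 8408 genes with at least 10 CPM in either cluster. The median ratio of cluster 1 to cluster 5 was 1.73 over the 8 genes and 1.01 over all of these. The ratio of cluster 1 to cluster 5 was 2.84 for Col17a1, 2.41 for Itgb4, 2.33 for Dst, 1.97 for Plec, 1.49 for Lama3, 1.44 for Itga6 and 1.35 for Lamb3. For Cd151 it was 0.998 (0.892 to 1.12). The basal keratins did not move one way: Krt5 was at 840.0 CPM in cluster 5 and 752.7 in cluster 1, and Krt14 at 1100 (1099.6) and 1189. The 8 basal markers summed to 4478 and 4819 CPM, and the 8 simple epithelial markers to 2119 and 949.5 CPM. The median UMI counts of the clusters were close (3247 and 3302).

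The 2 largest clusters differed in which genes stood higher. In cluster 2 Lama3 was at 261.9 CPM (250.3 to 274.0) against 169.5 (162.9 to 176.4) in cluster 1, 1.55-fold higher (1.45 to 1.64). Lamb3 was 1.34-fold and Itga6 1.23-fold higher there. Itgb4 was higher in cluster 1, at 141.2 CPM (135.2 to 147.5) against 106.9 (99.5 to 114.7), and so was Dst, with 487.5 and 394.8 CPM. Col17a1 and Cd151 were within counting error of each other in these clusters. Cells of cluster 2 were shallower, with a median of 1959 UMIs against 3302, and the part of depth in these ratios, all under 2-fold, was not tested. The dividing cells of cluster 3 had lower levels than cluster 2 for each of the 8 genes, by ratios from 1.14 (Itgb4) to 1.80 (Lama3), and 56.6% of 8860 genes were lower there too. The median ratio was 1.31 over the 8 genes and 1.06 over all of these, and the median depth was 3672 UMIs in cluster 3 against 1959. Cluster 2 had the highest Lama3 and Itga6 of the epithelial-like clusters compared. Lama3 was at 145.6 CPM in cluster 3 and 186.7 in all epithelial-like cells outside it, and Itga6 at 193.2 and 215.3. Cluster 5 stood below cluster 3 in each gene but Cd151 (86.4 and 77.3 CPM), with overlapping intervals for Lamb3. The share over all genes was not computed for these comparisons.

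Cluster 6, led by Zfpm2 and Aff2, was kept out of both classes and stood apart in depth. Its cells had 1216 UMIs at the median, 9.77% of them mitochondrial, and Malat1, a nuclear RNA, took 8.83% of its UMIs, against 0.611% to 2.11% in the other clusters. Lama3 reached its highest level there, 416.5 CPM (378.8 to 456.9), and Dst too, with 567.0 CPM (522.9 to 613.9). Cd151 was at its lowest, 17.7 CPM (10.6 to 27.6, from 19 UMIs). The genes span 249.2 kb (Lama3), 400.4 kb (Dst) and 4.08 kb (Cd151), and whether gene length or reads from introns have a part in these levels was not tested.

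**Figure D3:**
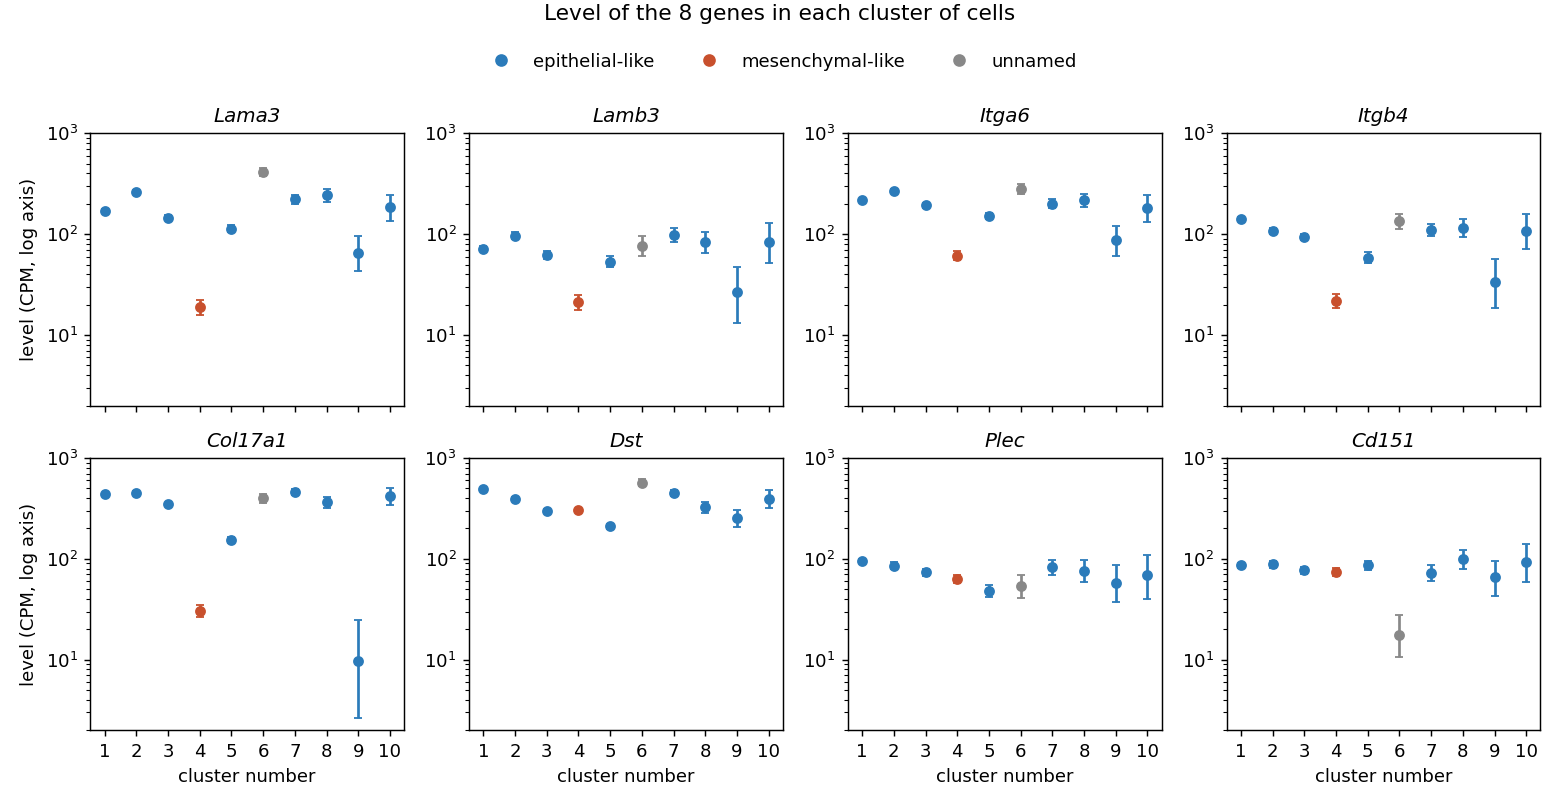
Level of each gene (CPM, log axis) in the 10 clusters, blue for epithelial-like, red for mesenchymal-like and grey for the unnamed cluster, with exact 95% intervals for counting error. Lama3, Lamb3, Itga6 and Itgb4 are lowest in cluster 4 and next lowest in cluster 9, Col17a1 is lowest in cluster 9 (9.67 CPM), and Cd151 lies between 65.3 and 99.6 CPM in every cluster but cluster 6 (17.7).

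Counting error limited the order of the clusters. Ranked by level over all 10 clusters, neighbours had overlapping intervals in 4 of 9 cases for Lama3, 6 for Col17a1, 7 for Itga6 and Dst, 8 for Lamb3, Itgb4 and Cd151, and in all 9 for Plec. For Lamb3 the only neighbours apart were clusters 1 and 3, and for Itgb4 clusters 3 and 5. The low value of Cd151 in cluster 6 was the only one of that gene apart from its neighbour.

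Co-variation was described over 122 pools of epithelial-like cells, since single cells held few UMIs of each gene. Cells were pooled by their principal components, computed without the 8 genes, with 8 to 256 cells a pool and a median of 95.5. The median Spearman correlation of CPM over the 28 pairs was 0.50 (0.498), against 0.0197 over all 2724945 pairs of the 2335 genes with at least 73.4 CPM, the level of the lowest of the 8. The pools share 1 library and differ in depth, so these values are descriptions and carry no p-value.

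The laminin chains varied together most closely. Lama3 and Lamb3 had a correlation of 0.814, higher than 99.976% of all gene pairs, and the 1 pool mainly of cluster 9 had 73.2 and 23.6 CPM. Col17a1, which encodes BP180, and Dst, whose epithelial form is BP230, followed with 0.743. The Dst UMIs sum over its transcripts, so the part of BP230 in this value cannot be told apart. Itga6 correlated with Col17a1 at 0.640, and Itgb4 with Plec, whose protein binds the beta 4 tail, also at 0.640. Itga6 and Itgb4, the subunits of 1 receptor, correlated at 0.363, lower than either did with Col17a1 and higher than 89.98% of all gene pairs. The values without Cd151 ran from 0.318 (Lamb3 and Itgb4) to 0.814.

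Cd151 stood apart, with correlations from -0.0047 (Plec) to 0.210 (Itgb4). Its level in epithelial-like cells, 84.3 CPM, was close to those of Plec and Lamb3 (81.0 and 73.4 CPM), whose correlations with the other genes were higher. Among the epithelial-like clusters with at least 100 cells it varied least of the 8 genes. Its highest level was 1.53-fold its lowest, against 1.97-fold for Plec and 3.71-fold for Lamb3. The part of counting error and of this narrow range in the correlations of Cd151 was not tested. Its protein also joins integrin alpha 3 beta 1 outside hemidesmosomes.

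**Figure D4:**
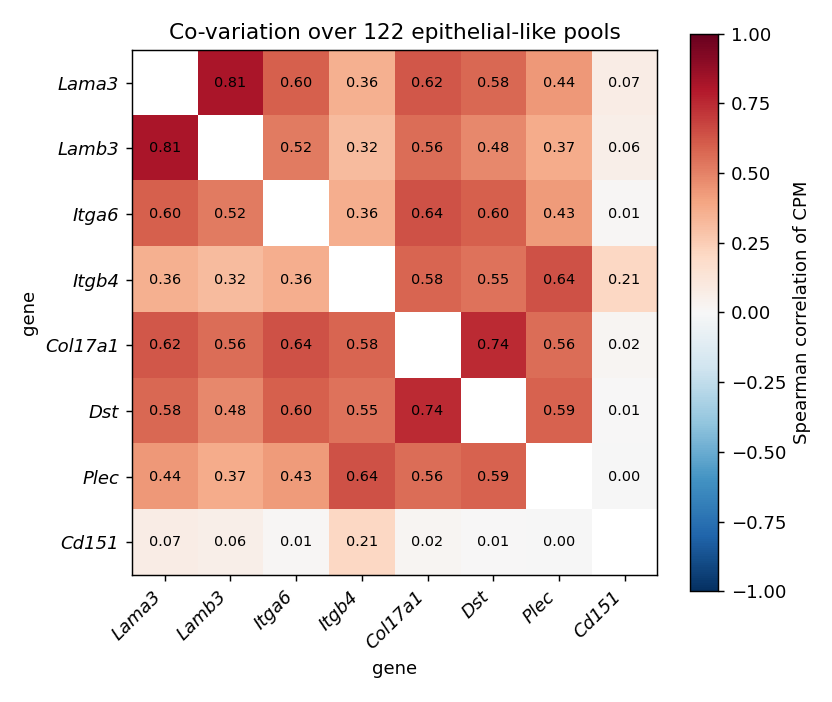
Spearman correlation of CPM between the 8 genes over 122 pools of epithelial-like cells (colour scale from -1 to 1). Lama3 with Lamb3 (0.81) and Col17a1 with Dst (0.74) are the strongest, and the row of Cd151 lies between 0.00 and 0.21.

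**Figure D5:**
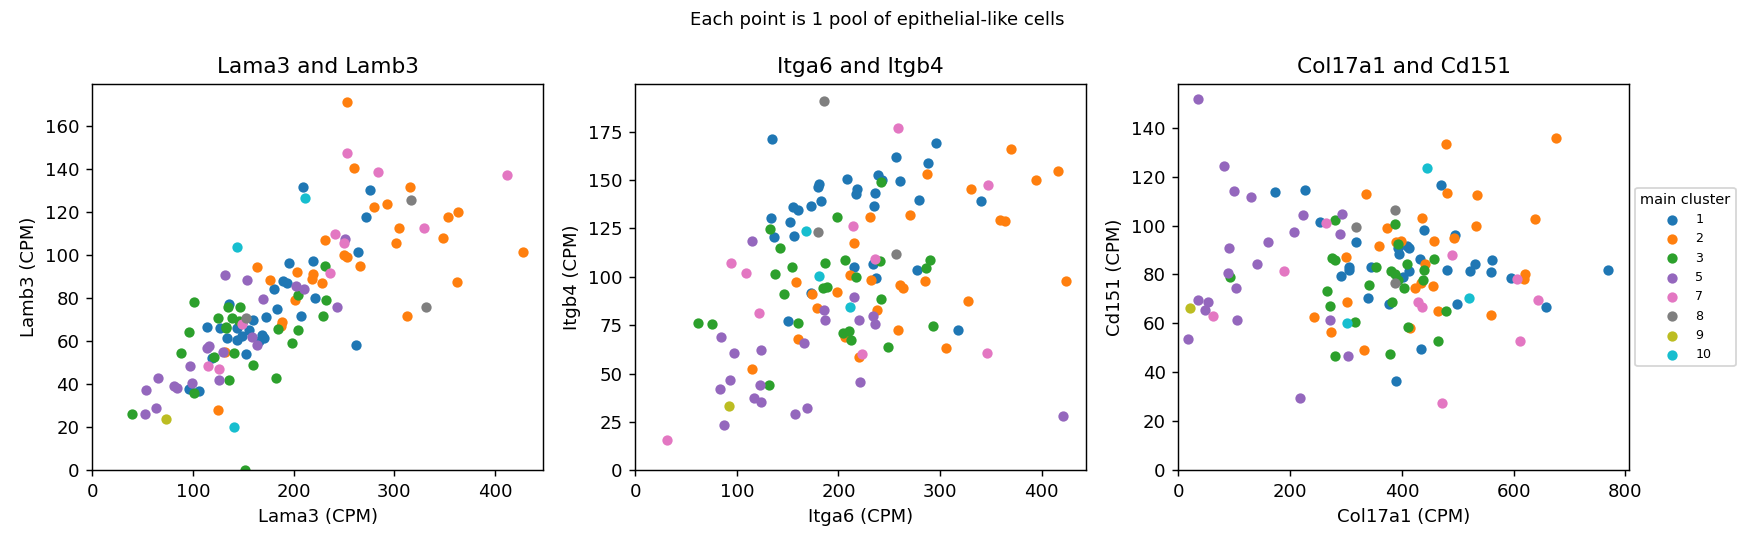
CPM of Lama3 against Lamb3, Itga6 against Itgb4 and Col17a1 against Cd151, each point 1 pool of epithelial-like cells coloured by the cluster that gave most of its cells. The first pair rises together (0.814), the second less so (0.363) and the third shows no trend (0.0203).

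Within single clusters the median was lower or, in cluster 2, about the same, and some pairs were higher. Within the 31 pools mainly of cluster 1 the median over pairs was 0.343, within the 28 of cluster 2 it was 0.495, within the 25 of the dividing cluster 3 it was 0.114, within the 21 of cluster 5 it was 0.395 and within the 10 of cluster 7 it was 0.267. Within cluster 1 Lama3 and Lamb3 still correlated at 0.717 and Col17a1 and Dst at 0.835, while Cd151 correlated with Plec at -0.461. The last value lay inside the 5th to 95th percentile over all gene pairs in these pools (-0.568 to 0.599). Lama3 and Lamb3 reached 0.888 in cluster 5 and 0.363 in cluster 3, and Itga6 and Dst 0.885 in cluster 2, against 0.599 over all pools. The 95th percentile over all gene pairs was 0.531 in cluster 5, 0.469 in cluster 3 and 0.570 in cluster 2. Depth moved with some of the genes: the correlation with the median UMI count of a pool was -0.490 for Lama3, -0.459 for Lamb3, -0.368 for Itga6 and -0.304 for Col17a1, and 0.0949 for Itgb4. The correlation with the Malat1 level of a pool ran from 0.0102 (Cd151) to 0.332 (Dst). It was 0.245 for Itga6, 0.189 for Lamb3, 0.162 for Lama3 and 0.142 for Col17a1. The part of depth and of Malat1 level in the correlations was not tested. Krt5 varied apart from the set, with correlations from -0.116 (Cd151) to 0.230 (Dst).

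Correlations over single cells were small. Over 11157 epithelial-like cells thinned to 1500 UMIs the median over pairs was 0.0242 and the highest value 0.114, for Col17a1 and Dst, where the median over all gene pairs was 0.00042 and their 95th percentile 0.0253. Over 1927 mesenchymal-like cells the median was 0.00912 and the highest value 0.101, for Lama3 and Col17a1, which were found together in 8 cells. The median over all gene pairs in these cells was 0.00022 and their 95th percentile 0.0439. In counts this sparse such values are not read as findings.

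Among 6170 other genes with at least 20 CPM in epithelial-like cells, those most like the summed level of the 8 genes over the 122 pools were Col4a4 (0.832), Rbms3 (0.827) and Sox6 (0.815). Col4a4 (0.819) and Col4a3 (0.776), which encode collagen IV chains of specialised basement membranes, were also among the 3 genes most like Col17a1, together with Sox6 (0.777). For Lama3 these were Cast (0.804), Atxn1 (0.779) and the Notch ligand gene Jag1 (0.769), and for Lamb3 Cast (0.699), Cd47 (0.685) and App (0.669). For Itga6 they were 2610307P16Rik (0.764), Enah (0.726) and Nfat5 (0.721), and for Itgb4 Prss23 (0.698), the chemokine gene Ccl9 (0.685) and Pls3 (0.651). Dst went with Aopep (0.809), Rbms3 (0.774) and Pde7a (0.766), and Plec with the actin regulator Lima1 (0.663), Inhba (0.651) and the matrix gene Tnc (0.621). The closest genes to Cd151 reached 0.416 (Sdc3), 0.408 (Spint2) and 0.402 (Actn1). No gene was among the closest 3 of both integrin subunits, but lists of 3 out of 6170 genes are too short to show that the subunits vary apart.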

How the data were processed

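The deposited matrix holds raw UMI counts per gene and barcode, and the file headers name CellRanger 8.0.1; the unit is the deposited count. The submitters' processing notes also name the build mm10 and Scanpy 1.8.2. The kit was 10x Genomics 3′ per the labels' protocols. The sources used here state neither the annotation nor whether intronic reads were counted. The labels list 3 libraries of 1 culture and the matrix names none, so it was used as 1 pooled sample. The members and lists were chosen with earlier results of these data known.

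Counts per 10000 were log1p-transformed and clustered in scanpy 1.11.5 (2000 variable genes, 30 components, 15 neighbours, Leiden resolution 0.6, igraph 0.11.9). A cluster took a class name with at least 3 markers of that class in at least 25% of its cells, and if both lists qualified, the one higher relative to all cells, a rule set after the clusters were seen. Scrublet (expected rate 5%) called 1 cell, 0.0067%, too few for a working call, so doublets were not removed. CPM came from summed counts with exact Poisson intervals, shares have exact Clopper-Pearson intervals, and ratio intervals are exact binomial. Genes at least 2-fold apart needed 10 CPM in either set, and a 0 counted as 3 UMIs. Thinning to 1500 UMIs, the largest multiple of 500 that 80% of cells reached, used 13281 cells. Pools came from k-means (scikit-learn 1.9.0). The fold and correlation steps were tested on simulated data. Of the features, 32235 matched GENCODE M21 by ID. Named genes are the 8 members, up to 5 companions per direction with the largest ratio of at least 2, and the 3 genes most correlated with each member or their sum. Of the companions, 1 is not reported here, though it is in their counts.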

Additional observations from a re-analysis of the deposited data

How the results depend on the processing

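The same count of 5 genes at least 2-fold apart between the classes was found under all 15 alternatives, among them 1000 genes and 2000 UMIs, 10% mitochondrial UMIs, other cluster resolutions (0.3 and 1.0), per-cell marker classes, totals without GFP, Scar, Malat1 and mitochondrial UMIs, and limits of 1.5-fold (38.2% of all genes) and 3-fold (11.2%). The ratio ranged from 9.18 to 24.3 for Lama3, 3.31 to 4.09 for Lamb3, 3.44 to 4.07 for Itga6, 5.06 to 7.46 for Itgb4, 11.8 to 56.0 for Col17a1 and 1.07 to 1.36 over Dst, Plec and Cd151. The count among epithelial-like clusters ranged from 4 to 7 over 8 alternatives. The share over all genes was 57.7% in the main setting and 40.0% without cluster 9, where the count was 4. That share was not computed for the other alternatives, so their counts cannot be set against it. The median correlation over pools ranged from 0.416 to 0.584 over all alternatives but 1, and was 0.343 in pools mainly of cluster 1. Pools mainly of clusters 3, 5 and 7 were not among these alternatives. Their medians of 0.114, 0.395 and 0.267 were also lower than the 0.498 over all pools. The cause was not tested. Leaving out the dividing cluster, cluster 9 or mesenchymal-like cells with an epithelial marker UMI, and taking pools of cluster 1 or 2 alone, were alternatives chosen after seeing the data. No paired analysis was possible because there is 1 sample. Clusters 9 and 10 are small (111 and 81 cells), which limits the precision of their levels.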
